A study of Mus musculus with 14 samples.

Results

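Transcripts of the NF-kB subunits and of the proteins that restrain them were followed in microglia from brains of specific-pathogen-free (SPF) and germ-free (GF) mice. The group was set by gene name (NFKB1, NFKB2, REL, RELA, RELB, NFKBIA, NFKBIB, NFKBIE, NFKBIZ and TNFAIP3 in the capitals of the deposited table) and holds 10 of the 14104 genes in the deposited table, namely the 5 subunit genes Nfkb1, Nfkb2, Rel, Rela and Relb, the 3 cytoplasmic inhibitor genes Nfkbia, Nfkbib and Nfkbie, the nuclear regulator gene Nfkbiz and the deubiquitinase gene Tnfaip3. Where a symbol had several rows, the one whose mean across all 14 libraries was highest stood for the gene. Nfkb2 had 3 rows, 2 of them distinct, and the 3 rows of Nfkbiz and the 2 of Tnfaip3 were identical within each gene. All 10 genes passed the filter on low values.

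The study asked how microglia differ when mice live without microorganisms. All mice were C57BL/6, were 6 to 8 weeks old and had received no treatment, and the groups differ in the labels only in housing, which was SPF in 7 libraries and GF in 7. Microglia, the resident macrophages of the brain, were isolated by density gradient and cell sorting as cells positive for CD11b with low CD45, and 3' end libraries were made from polyadenylated RNA. By the series design 1000 cells were taken from each brain, but the labels do not say that each library came from a separate animal, and they name no sex, cage or batch. The p-values therefore describe the spread among these libraries, part of which may be technical.

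NF-kB is a family of dimeric transcription factors that macrophages use to switch on inflammatory and survival genes after signals from Toll-like receptors, the tumour necrosis factor receptor or the interleukin-1 receptor. In resting cells the dimers are held in the cytoplasm by IkB proteins. A kinase complex marks IkB for ubiquitination and degradation, which frees the dimers, and the freed dimers induce the genes of several of their own inhibitors. Much of this control acts on proteins, which RNA levels do not measure.

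Depth lay between 902448 and 1627293 read equivalents in SPF libraries and between 675929 and 1184759 in GF libraries. In SPF 19.3% to 23.7% of genes were listed at 0, and in GF 22.8% to 27.6%. The depth of GF 6 was the lowest of the 14. With limma and a threshold of 0.05 on the Benjamini-Hochberg adjusted p, 8762 genes were tested, of which 320 were called higher and 265 lower in GF. Equal library totals gave 210 higher and 422 lower calls and moved the median log2 difference of all genes tested from -0.02 to -0.11. The 12 microglial marker genes summed to between 45689 and 56707 normalized counts in every library, led by Csf1r, the receptor gene on whose signals microglia depend. Class II and dendritic cell markers, led by Cd74, the invariant chain gene, summed to 3240 in GF 1 and to between 58.6 and 172 in the other 13 libraries. The 8 monocyte and perivascular macrophage genes in the table, led by Mrc1, the mannose receptor gene, summed to 11.5 to 39.1 in SPF and 0 to 17.8 in GF. Neuronal markers, led by Rbfox3, summed to at most 42.4. The sums of the neutrophil, lymphocyte and astrocyte lists came mostly from Csf3r, Cd79b and Slc1a3, and without these they reached at most 10.1, 5.10 and 26.3. Oligodendrocyte markers, led by Cnp, summed to 265 to 320 in SPF and 209 to 278 in GF. Endothelial and pericyte markers summed to 601 to 847 in SPF and 891 to 1139 in GF, mostly from Bsg, which encodes basigin, without which they reached at most 98.6. Cldn5, a defining endothelial gene, was listed at 0 in all libraries. In bulk samples such as these, fewer cells of a type and less RNA per cell cannot be told apart.

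Of the 10 NF-kB genes, 2 rose in GF and none fell. The genes that rose were Rela and Nfkbia, so 1 of 5 subunits and 1 of 3 cytoplasmic inhibitors passed (limma adjusted p under 0.05 over all genes tested). Among all genes tested 3.65% were called higher in GF, 3.02% lower and 6.68% in either direction. At an unadjusted p under 0.05, 10.8% of all genes tested were higher and 11.1% lower in GF, and Relb was the single further member past that mark. The members' median log2 difference was -0.18, against -0.02 for all genes tested. Above 0 stood 3 members and below it 7, beside 4248 above and 4514 below among all genes tested. The members below 0 include Nfkbiz, which passed the filter on low values only through SPF. Its place there supports nothing, and it also enters the members' median, so no shift of the group is read from these values.

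**Figure D1:**
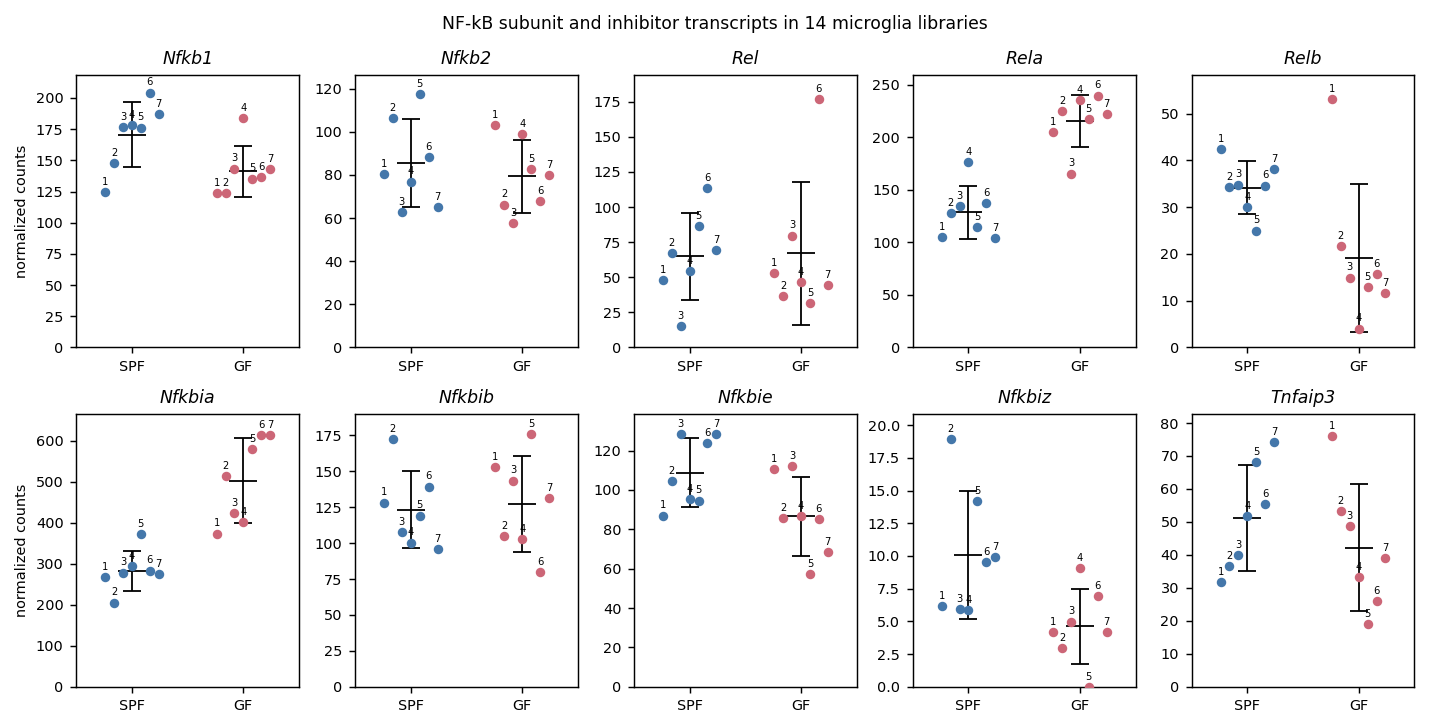
Normalized counts (vertical axes, linear from 0, scaled per gene) of the 10 genes in 7 SPF libraries (blue) and 7 GF libraries (red), with the library number above each point and the mean ± SD in black. Rela and Nfkbia stood higher in GF, at means of 215 and 503, while Relb was lower in 6 of 7 GF libraries and 53.1 in GF 1.

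Nfkbia, which encodes IkB-alpha, the inhibitor that is degraded and made anew most rapidly after stimulation, ran from 205 through a median of 279 to 373 normalized counts in SPF and from 374 through 515 to 614 in GF. Every GF library stood above every SPF library, although the highest SPF library, SPF 5, and the lowest GF library, GF 1, differed by less than 1 normalized count. Such a complete separation was seen upward in 1.26% of genes tested and downward in 0.867%. The means were 282 ± 49.4 in SPF and 503 ± 103 in GF (SD over 7 libraries each), a 1.78-fold difference of means. On the log2 scale the difference was 0.82 ± 0.13 (SE), with a 95% interval of 0.55 to 1.10 and limma adjusted p = 0.000409. An exact permutation test over the 3432 divisions of the libraries gave p = 0.000583, the smallest these divisions allow. The complete separation fixes that value, so the test adds nothing to it. The level within GF was uneven, with GF 5, GF 6 and GF 7 at 580, 614 and 614 and GF 1, GF 3 and GF 4 at 374, 423 and 402.

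Rela encodes the subunit with the main transactivation domain of the classical NF-kB dimer. Its levels ran from 104 through a median of 128 to 176 normalized counts in SPF and from 165 through 222 to 240 in GF. The groups overlapped by a single pair, since GF 3, the lowest GF library, lay below SPF 4, the highest SPF library, and the other 6 GF libraries lay above all SPF libraries. Means were 128 ± 25.0 in SPF and 215 ± 24.9 in GF (SD over 7 libraries each), a 1.68-fold difference of means. The log2 difference was 0.75 ± 0.14 (SE), with a 95% interval of 0.47 to 1.03 and limma adjusted p = 0.00140. The exact permutation test, not adjusted, gave p = 0.00117. Rela had the smaller spread in GF, with an SD of 11.5% of the mean against 20.5% for Nfkbia.

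The rises of Rela and Nfkbia were of similar size, and the ratio of the normalized counts of Nfkbia to those of Rela overlapped fully between the groups. It ran from 1.61 through a median of 2.08 to 3.27 in SPF and from 1.71 through 2.56 to 2.77 in GF. The calls of both genes held in 27 of 28 other settings, with log2 differences of 0.55 to 0.83 for Rela and 0.73 to 0.89 for Nfkbia. They ended with the share of genes at 0 in a library as a covariate (limma adjusted p = 0.330 for Rela and 0.204 for Nfkbia), a share that itself differs with housing. With that covariate 7 genes of the whole table were called, and no other gene named here as risen or fallen passed.

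**Figure D2:**
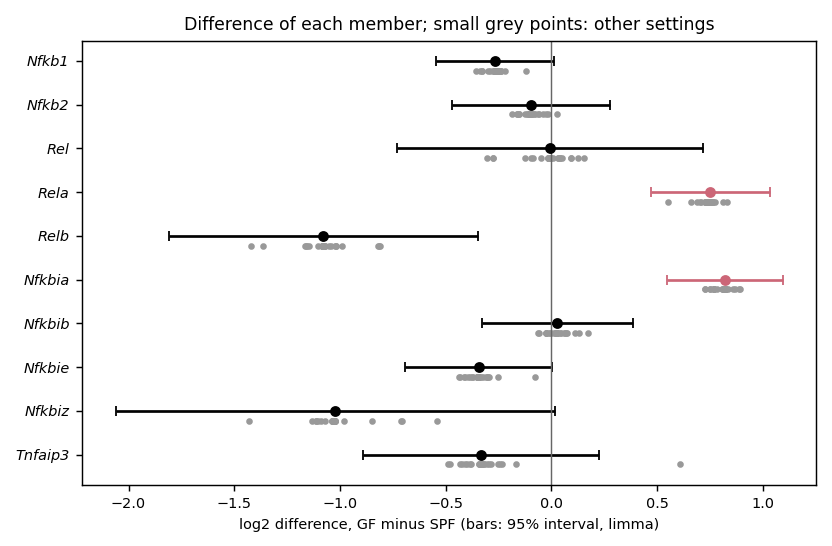
Log2 difference, GF minus SPF (horizontal axis), of each member with its 95% interval from limma, in red where called, and below it in grey the values under the other settings. The intervals of Rela and Nfkbia lie between 0.47 and 1.10, and that of Relb between -1.81 and -0.35.

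Among the other subunits, Relb, the partner of the processed Nfkb2 product in the alternative NF-kB pathway, stood out by a single library. Relb ran from 25.0 through a median of 34.6 to 42.4 normalized counts in SPF. In GF it ran from 4.03 through 14.9 to 53.1, and 6 of 7 GF libraries, from 4.03 to 21.8, lay below all SPF libraries. GF 1, at 53.1, lay above all of them. Over all libraries the log2 difference was -1.08 ± 0.36 (SE), with a limma adjusted p of 0.0676 that missed the threshold. Without GF 1 it was -1.36 and passed (limma adjusted p = 0.0130). It also passed with equal totals (limma adjusted p = 0.0453) and without GF 1, GF 6 and SPF 2 together (limma adjusted p = 0.0313), and over 27 other settings the adjusted p ran from 0.0130 to 0.616. Counts were small, at 4 to 54 read equivalents per library. GF 1 is the library with the high class II and dendritic cell marker sum, at 3240 against at most 172 elsewhere, and the part of that RNA in its Relb level was not tested.

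The remaining subunit genes did not pass. Nfkb1, whose precursor protein is processed to the common dimer partner of the product of Rela, ran from 125 through 177 to 204 normalized counts in SPF and from 124 through 136 to 184 in GF. Of the GF libraries 6 lay below the SPF median, and the exception was GF 4. The log2 difference was -0.27 with a 95% interval of -0.55 to 0.01 (limma adjusted p = 0.256). Nfkb2, which encodes the precursor of the alternative pathway, overlapped throughout, at 62.9 to 118 in SPF and 57.8 to 103 in GF, with an interval of -0.47 to 0.28. Rel, which encodes c-Rel, a subunit prominent in blood cells, was the most scattered subunit in SPF, with 15.3 to 113 normalized counts there and 31.8 to 177 in GF. Its highest value was that of GF 6, the shallowest library, and the next GF library stood at 79.7. The 95% interval of its log2 difference was wide, from -0.73 to 0.72.

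The other cytoplasmic inhibitor genes did not pass. Nfkbib, which encodes IkB-beta, ran from 96.1 through a median of 119 to 173 normalized counts in SPF and from 79.9 through 131 to 176 in GF. Its interval, -0.33 to 0.38, excludes the size seen for Nfkbia. Nfkbie, which encodes IkB-epsilon, ran from 86.9 through 105 to 129 in SPF and from 57.3 through 85.6 to 112 in GF, where 5 of 7 libraries lay below all SPF libraries and the remaining GF 1 and GF 3 did not. The log2 difference was -0.34 with an interval of -0.69 to 0.00 (limma adjusted p = 0.232). The difference between the changes of Nfkbia and of these genes was not tested.

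Nfkbiz encodes IkB-zeta, an inducible nuclear IkB protein that activates a second wave of inflammatory genes. It was scarce, at 0 to 21 read equivalents per library. Levels ran from 5.85 through 9.52 to 18.9 normalized counts in SPF and from 0 through 4.21 to 9.08 in GF. The mean was 10.1 ± 4.92 in SPF and 4.62 ± 2.88 in GF (SD over 7 libraries each), so the gene passed the filter, a mean of at least 7.22 over all libraries, only through SPF, and its place below SPF supports nothing. The log2 difference was -1.02 with an interval of -2.06 to 0.02 (limma adjusted p = 0.236), and it was -0.54 with 5 times the pseudocount and -1.43 with a smaller one. Tnfaip3 encodes A20, a ubiquitin-editing enzyme that shuts off signals to NF-kB, and is itself induced by NF-kB. It ran from 31.8 through 51.8 to 74.2 in SPF and from 18.9 through 38.9 to 76.0 in GF, and the groups overlapped widely. Its highest GF value was, as for Relb, that of GF 1. The interval of its log2 difference was -0.89 to 0.23 (limma adjusted p = 0.516).

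**Figure D3:**
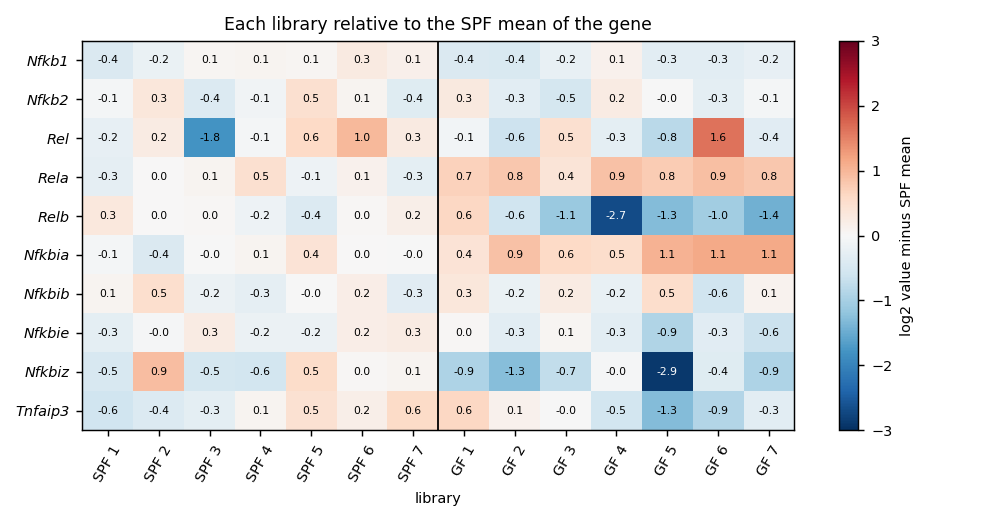
Log2 value of each gene (rows) in each library (columns) minus the gene's mean over the SPF libraries, from blue (lower) to red (higher), with the numbers in the cells. The rows of Rela and Nfkbia are above 0 in all 7 GF libraries, while Relb is above 0 in GF 1 and below 0 in the other 6.

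The members were placed against all genes tested by abundance and difference. By p-value Nfkbia and Rela ranked 36 and 55 of 8762, and Relb ranked 723.

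**Figure D4:**
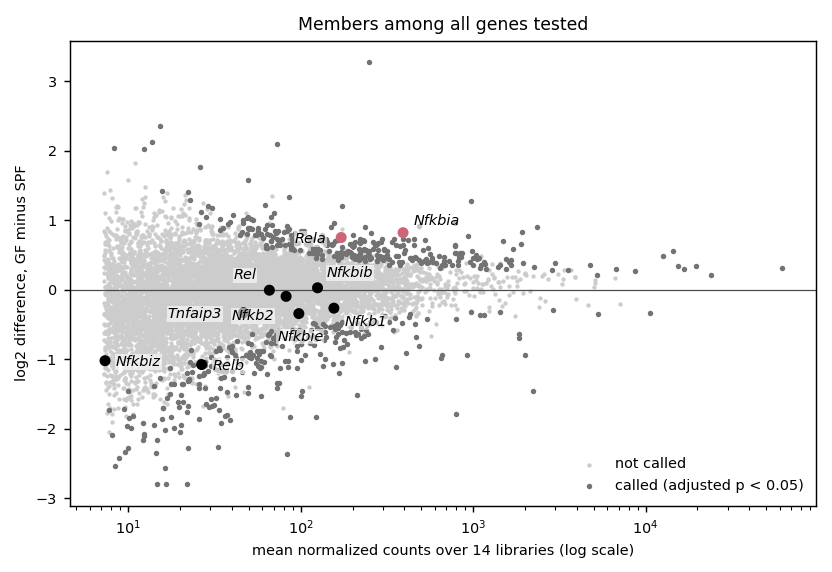
Log2 difference, GF minus SPF (vertical axis), against mean normalized counts over 14 libraries (horizontal log axis) for 8762 genes tested, in dark grey where called. Rela and Nfkbia (red) lie at the edge of the cloud for their abundance, and the other 8 members (black) lie among genes not called or, for Relb, near the border.

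Because NF-kB acts on the promoters of its own inhibitors, the promoters of both genes that rose are shown with 1 of the 2 listed for Tnfaip3, a known target that did not pass. The kappa-B consensus, the degenerate motif that NF-kB dimers bind, was searched on both strands in RefSeq promoters of GRCm38.p6. Each is 300 bases long and reaches from 250 bases before a listed start site to 50 after it. That start site is not always the first base of the gene. Of the 10 genes, 7 had promoters there, and matches are in capitals, also where they lie on the opposite strand.
Nfkbia, chr12:55492598-55492897, minus strand: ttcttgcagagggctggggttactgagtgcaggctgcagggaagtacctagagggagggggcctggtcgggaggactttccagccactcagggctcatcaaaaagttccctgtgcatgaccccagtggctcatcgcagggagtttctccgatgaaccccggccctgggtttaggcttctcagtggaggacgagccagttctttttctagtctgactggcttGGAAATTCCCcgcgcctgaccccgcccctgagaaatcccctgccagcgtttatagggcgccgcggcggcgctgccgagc
Rela, chr19:5637291-5637590, plus strand: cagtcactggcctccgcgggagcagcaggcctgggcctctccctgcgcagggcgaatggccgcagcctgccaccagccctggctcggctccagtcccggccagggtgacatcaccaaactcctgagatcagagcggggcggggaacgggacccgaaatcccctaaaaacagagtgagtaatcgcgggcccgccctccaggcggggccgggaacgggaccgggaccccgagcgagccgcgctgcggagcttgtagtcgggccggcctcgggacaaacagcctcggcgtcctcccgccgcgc
Tnfaip3, chr10:19015361-19015660, minus strand: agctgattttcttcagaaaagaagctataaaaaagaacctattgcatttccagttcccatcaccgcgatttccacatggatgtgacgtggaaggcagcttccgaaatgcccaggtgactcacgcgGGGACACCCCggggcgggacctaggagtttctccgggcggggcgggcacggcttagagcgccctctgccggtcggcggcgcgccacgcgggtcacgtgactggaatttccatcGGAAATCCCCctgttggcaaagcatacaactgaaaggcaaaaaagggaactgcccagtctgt
The Nfkbia promoter holds 1 match, GGAAATTCCC, which begins 29 bases before the start. The Tnfaip3 promoter shown holds matches at 2 places, GGGACACCCC, which begins 125 bases before the start and reads as a match on either strand, and GGAAATCCCC, which begins 12 bases before it. The other Tnfaip3 promoter, chr10:19011914-19012213, holds no match. No match is in the Rela window. The Rela gene is listed from base 5637442 of chromosome 19, inside that window, so the window belongs to another start site. The Nfkb2 gene is listed from base 46300994 of chromosome 19, ahead of all its windows. Among the 7 genes with promoters in the table, 5 held a match in at least 1 promoter, namely Nfkb2, Nfkbia, Nfkbie, Rel and Tnfaip3, against 9.55% of all 27025 genes there and 8.46% of all promoters. Of these 5, Nfkbia rose and the other 4 did not pass. A glucocorticoid receptor element, the palindrome that this receptor binds, was found in none of the members' windows and in 0.222% of all promoters. At so low a share few windows would hold this element, so its absence from the members says little. The motifs were chosen after the promoters had been seen, so the shares of genes with a match cannot serve as a test. A match describes the letters of the window and was not taken as a site.

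In the pathway lists, counts are to be read against the 3.65% of all genes tested that were called higher and the 3.02% called lower. Of 18 receptor and ligand genes tested, upstream of the subunits, 2 rose, 1 fell and 15 did not pass, with a median log2 difference of -0.15. Tnfrsf1a, the main receptor gene for tumour necrosis factor, was higher in GF, at 559 ± 59.7 normalized counts against 416 ± 55.8 (SD, n = 7 per group, limma adjusted p = 0.0116), but not without a mean trend. Cd14, a coreceptor gene for lipopolysaccharide, rose by a log2 difference of 0.48 (limma adjusted p = 0.0245) and missed the threshold under 10 of 28 alternatives, including the omission of SPF 2, SPF 6, GF 2 or GF 7 (limma adjusted p up to 0.0645 there). Il1a, which encodes interleukin-1 alpha, fell by 1.57 on the log2 scale (limma adjusted p = 0.00662). Among 39 adaptors and kinases 0 rose and 1 fell. That gene was Cul1, the scaffold of the ubiquitin ligase that marks phosphorylated IkB for degradation and also acts on many other proteins, which stood at 36.8 ± 9.98 in GF against 81.0 ± 18.9 in SPF (SD, n = 7 per group). Its log2 difference was -1.11 ± 0.20 (SE, limma adjusted p = 0.00156). All GF libraries lay below all SPF libraries for Cul1. Of 26 other negative regulators 1 rose and 0 fell, a share near that of all genes tested (3.65% higher, 3.02% lower). Nfkbil1, which encodes an IkB-like protein, rose by 0.89 (limma adjusted p = 0.0423) but missed the threshold under 14 of 28 alternatives, including the omission of SPF 4, 5, 6 or 7 or of GF 1, 2, 3, 5 or 6 (limma adjusted p up to 0.0959 there).

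Downstream, genes that NF-kB is known to induce were counted. Of 34 target genes tested, 1 rose and 3 fell, beside 3.65% called higher and 3.02% lower among all genes tested. Of the 34, 11 stood above 0 and 23 below, beside 4248 above and 4514 below among all genes tested. The median was -0.17, against -0.02 for all genes tested. Nlrp3, an inflammasome sensor gene, fell to 135 ± 25.6 normalized counts in GF against 236 ± 56.6 in SPF (SD, n = 7 per group, limma adjusted p = 0.00274). Ccl12, a chemokine gene, fell by 0.98 on the log2 scale (limma adjusted p = 0.00594), and Il1a is also on this list. Plau, the urokinase gene, rose to 135 ± 32.7 in GF against 75.3 ± 17.7 in SPF (SD, n = 7 per group, limma adjusted p = 0.00748).

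**Figure D5:**
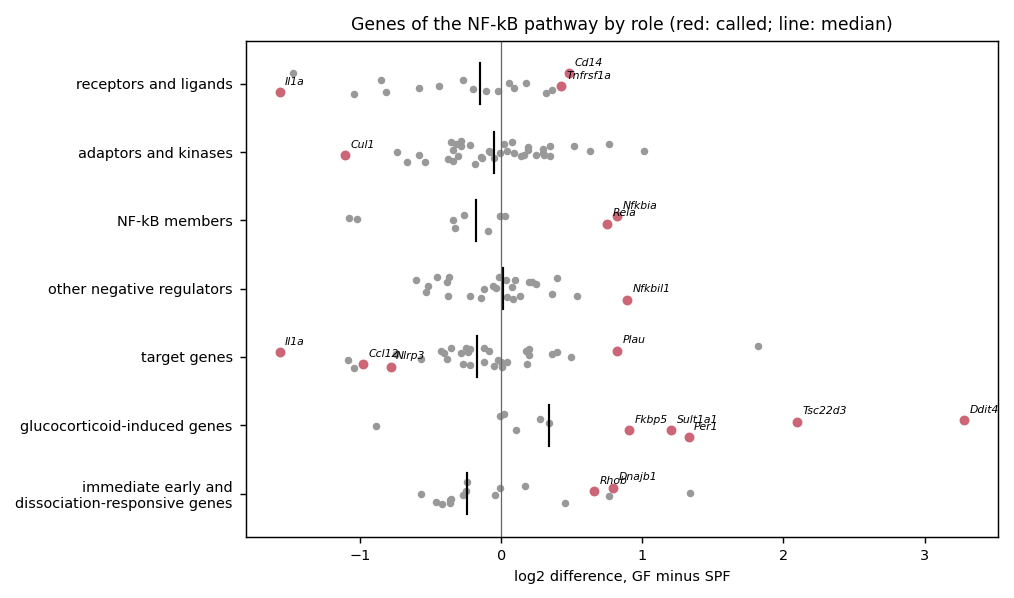
Log2 difference, GF minus SPF (horizontal axis), of the tested genes of each list (rows), in red with names where called and grey where not, with the list's median as a black line. The members' median is -0.18, that of the target genes -0.17 and that of the glucocorticoid-induced genes 0.34. The members' median includes Nfkbiz, which passed the filter on low values only through SPF.

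Nfkbia is also a textbook target of the glucocorticoid receptor, and other genes that glucocorticoids induce were counted. Of 11 tested, 5 rose and 0 fell, beside 3.65% higher and 3.02% lower calls among all genes tested, with a median log2 difference of 0.34. They were Ddit4, Tsc22d3, Per1, Sult1a1 and Fkbp5, with log2 differences of 3.28, 2.09, 1.33, 1.21 and 0.91. This list, like the others, was chosen with earlier results of these data known, so its share of calls cannot serve as a test. Whether glucocorticoids acted on Nfkbia was not tested. Per1 did not pass without a mean trend or without GF 1, GF 6 and SPF 2 together. Of 17 immediate early and dissociation-responsive genes, which cell isolation can induce, 2 rose and 0 fell, beside the same 3.65% and 3.02%, and the median was -0.24. These were Rhob, by 0.66, and Dnajb1, a chaperone gene, by 0.79.

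Likeness of pattern was measured as Pearson's correlation, over the 14 libraries, of log2 values less the mean of their own group, and the 3 genes with the highest values among those tested were taken. For Nfkbia they were Ube2d1, a ubiquitin-conjugating enzyme gene, at 0.88, Cd164, a sialomucin gene, at 0.87, and Tsc22d3, which encodes the glucocorticoid-induced leucine zipper, at 0.84. Tsc22d3 stood highest in SPF 5 among SPF libraries, at 39.2 normalized counts, as did Nfkbia. In GF it was highest in GF 5, GF 6 and GF 7, at 257, 214 and 132, the same 3 libraries in which Nfkbia was highest. Tsc22d3 was taken for its correlation with Nfkbia within groups, so this agreement follows from that choice and supports nothing further. Values per library of Ube2d1 and Cd164, which correlated more highly, are not shown. Ube2d1 and Cd164 did not differ past the threshold between groups (limma adjusted p = 0.719 and 0.270). For Rela they were Idh3g, a subunit gene of mitochondrial isocitrate dehydrogenase, at 0.81, Speg, a muscle kinase gene, at 0.79, and Tmem11, a mitochondrial membrane protein gene, at 0.79. Of these Tmem11 rose, by 0.59 (limma adjusted p = 0.0265), and it missed the threshold under 7 of 28 alternatives, including the omission of SPF 1, SPF 7, GF 1 or GF 6 (limma adjusted p up to 0.0576 there). Speg stood at 81.9 normalized counts in SPF 4 against at most 32.0 in the other SPF libraries. SPF 4 was also the highest SPF library for Rela, at 176, and the part of that library in the correlation was not tested. The libraries share depth and scaling between genes, and these correlations are the highest among all genes tested, so they describe the libraries.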

How the data were processed

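The authors deposited 1 table of normalized values per RefSeq transcript for 14 libraries, a signal that is never negative. The submitters' processing notes name TopHat and the build mm9. The sources used here do not say how reads were counted and scaled. Library totals lay between 1356633 and 1520780. Between 84.5% and 86.7% of the positive values were whole multiples, within 0.01, of 1 step per library. A library's depth in read equivalents is the sum over the 14104 genes, with 1 row per gene, divided by its step. Whole reads were not recovered for all values, so no count model was run. Of 18487 rows, 217 had no symbol, and names were matched to RefSeq by accession for 18115. RefSeq coordinates are of GRCm38.p6, a later build than mm9, and stand here only with sequences. The sources used here do not give strand use, so overlapping and antisense genes could not be told apart.

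Values were tested as log2 of the value plus a pseudocount of 1.44, which understates changes of low genes. Genes with a mean of at least 7.22 were fitted with a mean trend (limma 3.58.1, R 4.3.3), two-sided, with Benjamini-Hochberg adjustment over 8762 genes and a threshold of 0.05. Exact permutation tests, two-sided, were run for the members. "Rose" and "fell" are used of genes that passed. Pathway lists came from textbook knowledge. From each pathway list, genes past the threshold were named, or, where more than 5 passed, the 4 with the smallest adjusted p in each direction. From each marker list the gene with the highest level was named, and for each member that passed the 3 genes most like it. The members, lists and alternatives were chosen with earlier results of these data known, and the motifs after the promoters had been seen. The procedure was tested on simulated data. Figures were drawn with matplotlib 3.10.9. Alternatives were other pseudocounts, filters, scalings, spread models, row choices, a covariate, a replicate block and the omission of libraries.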

Additional observations from a re-analysis of the deposited data

Results flagged for a closer look

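Dixon's test at the 95% level was run on 78 groups of 7 libraries (39 genes named, 2 groups each). Chance meets its criterion in about 1 of 20 groups where values are normally distributed. The normalized counts were not log-transformed here, and some genes were named for their pattern in these libraries, so that rate need not hold. In 12 of the 78 groups the highest or lowest library stood apart from the other 6. For the members these were GF 4 for Nfkb1 in GF, at 183.6 normalized counts against at most 143.5 in the other GF libraries, GF 6 for Rel in GF, at 177.1 against at most 79.7, and GF 1 for Relb in GF, at 53.09 against at most 21.75. GF 1 also stood apart for Cd74, at 1195 against at most 140.2.

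Other genes were flagged in the same way. In SPF these were Cd14 in SPF 4 at 710.5, Cd79b in SPF 6 at 53.65, Il1a in SPF 7 at 24.73, Slc1a3 in SPF 7 at 151.2, Speg in SPF 4 at 81.91 and Tsc22d3 in SPF 5 at 39.17 normalized counts. In GF they were Cul1 in GF 7 at 57.83 and Fkbp5 in GF 5 at 416.0. Neither Rela nor Nfkbia was flagged in either group.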

How the results depend on the processing

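The count of members called stayed at 2 or 3 under 27 of 28 alternatives and was 0 with the share of genes at 0 as a covariate, where 7 genes were called in all, 2 higher and 5 lower in GF. Over all genes, 585 were called. That count was 314 without a mean trend (157 higher, 157 lower), 318 without GF 1, GF 6 and SPF 2 (153 and 165), and 403 to 620 with 1 library left out. With equal totals 210 were higher and 422 lower, and with 1 library left out 235 to 332 were higher and 168, without SPF 7, to 288 lower. A replicate block gave 518 calls and changed no call of a member, but same-numbered libraries deviated together with correlations of only -0.06 to 0.05, and 0 of 7 SPF libraries correlated best with the GF library of the same number, so the numbers were not taken as pairs.

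Some differences changed sign, among them those of members near 0. Rel ran from -0.31 to 0.16 and Nfkbib from -0.057 to 0.13 with 1 library left out. Nfkbib was -0.064 with equal totals and -0.024 with quantile normalization. With the covariate Nfkb2 was 0.028 and Rel 0.030. Larger differences also turned with it, since Tnfaip3 was 0.61 against -0.33 without it, and the neuronal marker Rbfox3 0.19 against -0.81. Csf1r, the leading microglial marker gene, rose by 0.30 (limma adjusted p = 0.00488) but was -0.047 with quantile normalization. Its call was also lost with no filter on low values, no mean trend or the covariate. The cause of these changes of sign was not tested. Unadjusted exact permutation tests gave p = 0.0117 for Relb, 0.0460 for Nfkb1 and 0.0490 for Nfkbie. These tests were run for the members only, so no share over all genes stands beside them. At an unadjusted limma p under 0.05, 10.8% of all genes tested were higher and 11.1% lower in GF. The exact permutation p of 0.0163 for Nfkbiz supports nothing, since that gene passed the filter only through SPF. Low depth limits Nfkbiz, at 0 to 21 read equivalents per library. Relb fell under the filter in 1 alternative, a mean of at least 20 pseudocounts, and Nfkbiz in 7.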

Other observations

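The following genes, which no rule of naming took and which were chosen after their values were seen, did not pass the threshold. Nfkbid, which encodes another nuclear IkB protein, had 31.1 ± 13.6 normalized counts in GF against 26.4 ± 10.7 in SPF (SD, n = 7 per group, limma adjusted p = 0.778). Ikbkb, the gene of the main IkB kinase of the classical pathway, had 54.2 ± 16.2 against 54.8 ± 14.8 (SD, n = 7 per group, limma adjusted p = 0.989). Chuk, the gene of its sister kinase, had a log2 difference of -0.67 (limma adjusted p = 0.198), and Tnf, a target and an activator of NF-kB, one of -1.04 (limma adjusted p = 0.0910). Nr3c1, which encodes the glucocorticoid receptor, had 294 ± 61.0 in GF against 265 ± 66.9 in SPF (SD, n = 7 per group, limma adjusted p = 0.619).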
